A study of Mus musculus with 55 samples.

Results

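The Prader-Willi imprinted cluster is taken here as 7 protein-coding genes of mouse chromosome 7 (mm10), chosen by name, namely Ndn, Magel2, Mkrn3, Peg12, Snrpn, Snurf and Ube3a. All 7 are listed in the oocyte tables, among 51734 genes, and all 7 in the embryo tables, among 24421 genes. Their transcripts were counted in single fully grown oocytes (FGOs) of mice aged 10 to 12 weeks and in MII oocytes, the stage reached after maturation. There were 18 wild-type FGOs, 8 of genotype Dnmt3L D124A/D124A (DNMT3L-ADD), 8 of genotype Dnmt3a ADA/ADA (DNMT3A-ADD), 8 double mutant FGOs with both genotypes and 10 wild-type MII oocytes. Cumulus cells had been washed off the FGOs. The mutant mice carry constitutive amino acid substitutions in the ADD domain, the part of DNMT3A and of its cofactor DNMT3L that binds the unmethylated tail of histone H3. Transcripts were also counted by parental allele in 3 E9 embryos made from double mutant oocytes, which were fertilized in vitro with sperm of the JF1 strain and carried by ICR females. These embryos have mutant alleles from the mother only, and no wild-type embryo was analysed here. No label ties a library to an animal or a litter, so p-values measure the spread between single oocytes or embryos, which may in part be technical.

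Genomic imprinting is the expression of a gene from 1 parental chromosome only. In this cluster an imprinting centre at the Snrpn start receives DNA methylation in the growing oocyte, through DNMT3A with DNMT3L, and none in sperm. In somatic tissue Ndn, Magel2, Mkrn3, Peg12, Snrpn and Snurf are then read from the paternal chromosome, as is the long non-coding RNA Snhg14, which runs on towards Ube3a. In neurons Snhg14 silences paternal Ube3a, so that this gene is read from the maternal chromosome, whereas other tissues use both copies. In humans, loss of the paternal genes underlies Prader-Willi syndrome, and loss of maternal UBE3A underlies Angelman syndrome.

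Promoter sequences are shown because the starts of these genes differ in their content of CG dinucleotides, and they are given for the imprinting centre (Snrpn and Snurf), for the paternally expressed genes with the largest summed allelic counts (Ndn and Peg12) and for the member with the highest oocyte level (Ube3a). Each line holds the 250 bases before the transcript start in RefSeq (GRCm38.p6, the assembly of mm10), read 5′ to 3′ on the gene's strand, with each CG, the target of DNA methylation, in capitals. For Ndn, RefSeq puts the start inside the span that the deposited tables give the gene. RefSeq promoters were found for 7 of 7 members.
Snrpn and Snurf, chr7:60005200-60005449, minus strand: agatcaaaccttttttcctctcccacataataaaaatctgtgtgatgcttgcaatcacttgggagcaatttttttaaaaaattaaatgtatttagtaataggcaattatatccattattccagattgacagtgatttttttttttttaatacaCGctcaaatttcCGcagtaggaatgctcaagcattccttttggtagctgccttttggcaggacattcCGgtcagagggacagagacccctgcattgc
Ndn, chr7:62348027-62348276, plus strand: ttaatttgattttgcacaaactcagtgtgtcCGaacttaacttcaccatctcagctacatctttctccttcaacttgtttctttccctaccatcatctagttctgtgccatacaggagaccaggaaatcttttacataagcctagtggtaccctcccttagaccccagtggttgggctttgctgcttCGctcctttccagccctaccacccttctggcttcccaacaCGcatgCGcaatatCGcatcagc
Peg12, chr7:62464511-62464760, minus strand: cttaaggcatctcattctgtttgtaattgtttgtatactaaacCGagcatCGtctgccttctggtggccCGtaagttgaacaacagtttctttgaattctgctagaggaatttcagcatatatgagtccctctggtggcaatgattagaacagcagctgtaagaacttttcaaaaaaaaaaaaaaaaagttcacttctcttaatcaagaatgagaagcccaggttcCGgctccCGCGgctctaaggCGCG
Ube3a, chr7:59228500-59228749, plus strand: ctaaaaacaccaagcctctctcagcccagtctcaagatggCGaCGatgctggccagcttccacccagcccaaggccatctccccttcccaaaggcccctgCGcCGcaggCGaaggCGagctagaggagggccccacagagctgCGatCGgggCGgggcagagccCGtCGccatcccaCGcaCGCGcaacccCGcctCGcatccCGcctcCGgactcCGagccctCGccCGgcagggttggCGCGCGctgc
The Ube3a promoter held 24 CG dinucleotides in these 250 bases, more than 88.0% of 32817 promoters, whose median was 6. The Snrpn and Snurf promoter held 3, Ndn 5, Magel2 7, Peg12 8 and Mkrn3 10. These counts stop at the transcript start, so they do not give the CG content of the imprinting centre as a whole. The hexamer TGCCGC, the motif of the imprint protector ZFP57, was searched on both strands in windows of 300 bases that also take in the first 50 transcribed bases. It was present in 1 of the 9 windows of the members, and 11.6% of all promoter windows hold it. The match lies across the Snrpn and Snurf start, at chr7:60005190-60005219 on the minus strand, and is in capitals in these 30 bases, where it reads as GCGGCA, the reverse complement.
Snrpn and Snurf start: gacagagacccctgcattGCGGCAaaaatg
RefSeq lists 3 further Snrpn starts upstream of this one, the farthest at position 60450177, which is also the start of Snhg14. No match of the hexamer was present in the windows of the other members.

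In the deposited oocyte tables, Ndn (62346569 to 62350262), Magel2 (62377010 to 62381640), Mkrn3 (62417593 to 62420139) and Peg12 (62461871 to 62464510) are single-exon genes that share no exonic base with another listed gene. Snrpn (59982495 to 60140219, minus strand) has 12 merged exons with 2159 bases, of which 27.3% are shared with Snurf or another gene of the same strand. Snurf (59995449 to 60005049) has 216 exonic bases, and 100% of them are shared with Snrpn. Ube3a (59228750 to 59311536, plus strand) has 20626 exonic bases, of which 27.3% overlap genes of the opposite strand, Snhg14 among them. The strand setting of the counting is not given in the sources used here, so Ube3a and Snhg14 reads from the overlap cannot be told apart.

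Total counts lay between 7832458 and 23739871 per oocyte library and between 6998944 and 8547786 per embryo. Counts from 1 to 20 were even numbers in 64.5% of cases in oocytes, against 50.5% of counts over 1000, so that a count of 2 may be the 2 ends of 1 fragment. Intervals and floors given here cover counting error only. Oocyte markers (Gdf9, Bmp15, Zp2, Zp3, Oosp1 and Nlrp5) were present in every group, and their summed level in CPM (counts per 1000000) is given beside Ube3a. Of 8 granulosa cell markers, which reveal attached follicle cells, the summed level had a median of 49.2 CPM in wild-type FGOs (30.4 to 100.4), beside 46.2 with DNMT3L-ADD, 37.6 with DNMT3A-ADD, 28.1 with both mutations and 27.7 in MII oocytes, where only Amh was at 0 throughout. Of these 8 genes 2, 4, 6 and 6 fell in the same order of comparisons (edgeR), and their part in the results was not tested. By the share of reads mapped in the study's library summary, the oocytes were split at 80% into a lower class, with 8 wild-type and all 8 double mutant FGOs, and a higher class, with 10 wild-type FGOs and every DNMT3L-ADD oocyte. Both classes occurred with DNMT3A-ADD (3 lower, 5 higher) and in MII oocytes (3 lower, 7 higher). Dnmt3a and Dnmt3l RNA did not pass the test in any mutant (adjusted p from 0.153 to 0.693, edgeR), and counts cannot show the substitutions themselves.

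Only Ube3a and Snrpn, of the 7 genes, had enough reads in oocytes to be tested. Per transcript length, in RPKM (counts per 1000000 and per 1000 exonic bases), Ube3a stood at 8.21 ± 0.844 (SD, n = 18) in wild-type FGOs and Snrpn at 3.46 ± 0.697, both far above Ndn at 0.0645 ± 0.0632. Magel2 (0.0203 ± 0.0256), Peg12 (0.0156 ± 0.0283) and Mkrn3 (0.00968 ± 0.0291) followed, with an SD above the mean, so that their order is not resolved. Snurf was listed at 0.

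Ube3a, which encodes an E3 ubiquitin ligase, fell in both single mutants and in MII oocytes against wild-type FGOs, and did not pass the test in the double mutant. Wild-type FGOs ranged from 139.5 to 193.6 CPM with a median of 168.0. DNMT3L-ADD FGOs ranged from 126 to 176 CPM with a median of 137, DNMT3A-ADD FGOs from 102 to 161 CPM with a median of 126, and double mutant FGOs from 153 to 199.5 CPM with a median of 179. MII oocytes were the most alike, from 127 to 147 CPM with a median of 134.5. In these values 6 of 8 DNMT3A-ADD FGOs, 7 of 10 MII oocytes and 4 of 8 DNMT3L-ADD FGOs lay below the lowest wild-type FGO, while 2 of 8 double mutant FGOs lay above the highest. In descending order the group means were 179 ± 14.8 CPM (double mutant), 169 ± 17.4 (wild type), 140.5 ± 15.9 (DNMT3L-ADD), 136 ± 8.19 (MII) and 129 ± 19.8 (DNMT3A-ADD). The last 3 lie within their SDs of each other.

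**Figure D1:**
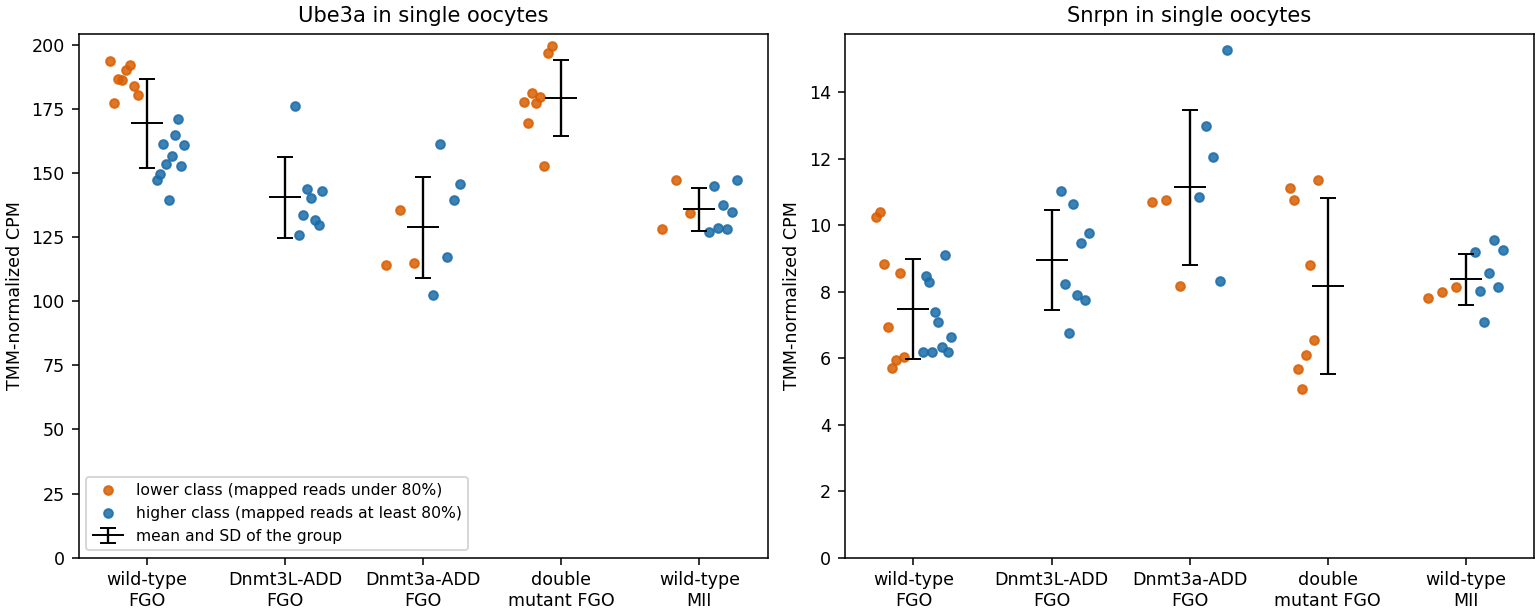
TMM-normalized CPM (linear axes from 0) of Ube3a and Snrpn, with 1 point per oocyte, coloured by the class of mapped reads, and the mean and SD of each group in black. For Ube3a the wild-type FGOs of the 2 classes do not overlap (177 to 194 against 139.5 to 171 CPM), and all 8 double mutant FGOs are of the lower class.

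By edgeR's quasi-likelihood test with Benjamini-Hochberg adjustment over all genes, Ube3a fell by 0.27 (SE 0.07) on the log2 scale in DNMT3L-ADD FGOs (adjusted p = 0.0164) and by 0.41 (SE 0.07) in DNMT3A-ADD FGOs (adjusted p = 0.000132). An adjusted p under 0.05 was reached by 6.13% and 15.7% of the 15726 genes tested in these comparisons. In double mutant FGOs the Ube3a difference was 0.08 (SE 0.07, adjusted p = 0.458), where 12.2% of genes passed. In that comparison 0 of the 2 tested members passed in edgeR, 0 at an unadjusted p under 0.05 and 0 in DESeq2. In MII oocytes Ube3a fell by 0.34 (SE 0.06, adjusted p = 2.78e-05), among 39.1% of 15784 genes that passed. None of these changes reached 2-fold.

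The oocyte markers moved with Ube3a. Their summed level had a median of 7771 CPM in wild-type FGOs, 6458 with DNMT3L-ADD, 5955 with DNMT3A-ADD, 8947 with both mutations and 6070 in MII oocytes. Of the 6 markers, 5 fell with DNMT3L-ADD (all 6 log2 differences from -0.41 to -0.18), 6 with DNMT3A-ADD (-0.61 to -0.27) and 3 in MII oocytes (-1.96 to 0.02), while 2 rose and none fell with both mutations (0.09 to 0.30). Their part in the Ube3a differences was not tested.

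The class of mapped reads moved with Ube3a among wild-type FGOs. The 8 of the lower class stood at 186 ± 5.71 CPM and the 10 of the higher class at 156 ± 9.23 CPM, with no overlap. The other groups with both classes did not show this shift. Lower and higher class stood at 137 ± 9.68 and 135 ± 8.30 CPM in MII oocytes, and at 121 ± 12.2 and 133 ± 23.4 CPM in DNMT3A-ADD FGOs. Fits with the class as a covariate, here and below, take 1 shift for all groups, which these values do not show. Within the higher class, Ube3a differed by -0.14 (SE 0.07) in DNMT3L-ADD FGOs (adjusted p = 0.257, edgeR) and by -0.22 (SE 0.08) in DNMT3A-ADD FGOs (adjusted p = 0.0913), and neither passed. With the class as a covariate, the DNMT3L-ADD difference was -0.19 (SE 0.07, adjusted p = 0.117), whereas the DNMT3A-ADD difference was -0.38 (SE 0.07, adjusted p = 9.69e-05). Within the lower class Ube3a fell by 0.64 (SE 0.08) in DNMT3A-ADD FGOs (adjusted p = 0.000281), and the double mutant difference was -0.08 (SE 0.06, adjusted p = 0.691). Ube3a fell in MII oocytes in both classes, by 0.47 (SE 0.08, adjusted p = 0.000308) in the lower and by 0.20 (SE 0.07, adjusted p = 0.0388) in the higher. The part of the library class in these differences was not tested further, and for the double mutant and DNMT3L-ADD FGOs, each of 1 class, only wild-type FGOs of that class can be set beside them.

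The study asked how the 2 mutations act together. Had their log2 effects added up, the double mutant would have shown the sum of both falls in Ube3a. The departure from that sum was 0.76 (SE 0.11, adjusted p = 2.02e-06), in a contrast where 35.6% of genes passed, and it was 0.57 (SE 0.12, adjusted p = 0.00146) with the class of mapped reads as a covariate. All 6 oocyte markers departed in the same direction as Ube3a, by 0.63 to 1.29. Snrpn departed in the opposite direction, by -0.69 (SE 0.21, adjusted p = 0.00911), a call lost with that covariate (-0.72, SE 0.26, adjusted p = 0.0518). Double mutant FGOs are all of the lower class and DNMT3L-ADD FGOs all of the higher, so this contrast cannot be fitted within a class.

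Snrpn, which encodes the spliceosomal protein SmN, was higher in DNMT3A-ADD FGOs. It ranged from 5.71 to 10.4 CPM with a median of 7.01 in wild-type FGOs and from 8.18 to 15.3 CPM with a median of 10.8 in DNMT3A-ADD FGOs. All 8 of the latter lay above the wild-type median, and 6 of 8 above the highest wild-type FGO. Snrpn rose by 0.56 (SE 0.13) on the log2 scale there (adjusted p = 0.00323, edgeR). It rose by 0.72 (SE 0.14, adjusted p = 0.00153) within the higher class of mapped reads, while within the lower class, with 3 mutant FGOs, the difference was 0.31 (SE 0.25, adjusted p = 0.452). DNMT3L-ADD FGOs ranged from 6.77 to 11.01 CPM with a median of 8.84, a difference of 0.26 (SE 0.14, adjusted p = 0.26). Double mutant FGOs were spread more widely, from 5.06 to 11.4 CPM with a median of 7.68, with 2 of 8 below the lowest and 3 of 8 above the highest wild-type FGO, and the difference was 0.13 (SE 0.14, adjusted p = 0.57). MII oocytes ranged from 7.09 to 9.54 CPM with a median of 8.13, all within the wild-type range, with a difference of 0.15 (SE 0.12, adjusted p = 0.325).

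**Figure D2:**
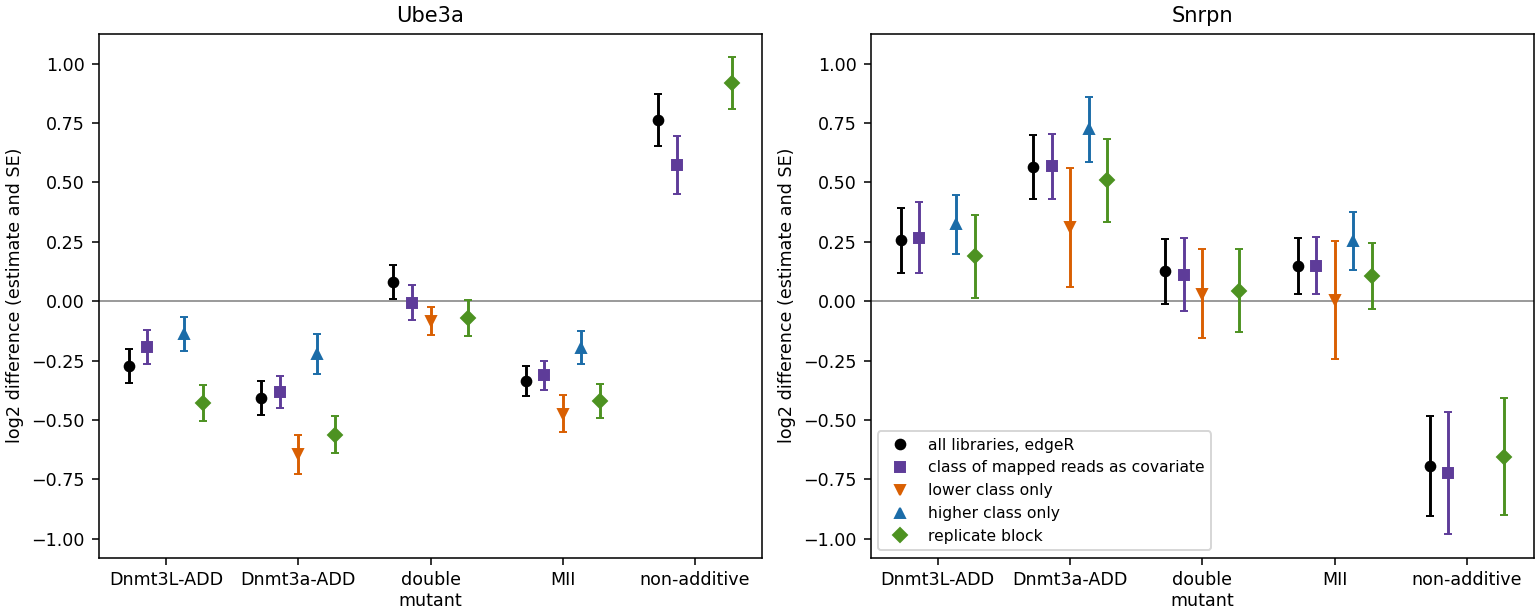
Log2 differences (point) with their SE (bar) of Ube3a and Snrpn in each comparison, from all libraries, with the class of mapped reads as a covariate, within each class where both groups have libraries, and with the replicate number as a block. The Ube3a estimates of the single mutants and of MII oocytes are all below 0 and those of the double mutant lie on both sides of 0, while the Snrpn estimates in DNMT3A-ADD FGOs lie between 0.31 and 0.72.

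The paternally expressed genes Ndn, Magel2, Mkrn3 and Peg12 were at or near 0 in every oocyte, mutant FGOs included. Ndn encodes necdin, a MAGE family protein, and had 0 to 12 counts per wild-type FGO with a median of 4, present in 13 of 18. In mutant FGOs its highest count was 6, and it was present in 3 of 8 DNMT3L-ADD oocytes, 7 of 8 with DNMT3A-ADD and 5 of 8 double mutants. Magel2, another MAGE gene, whose protein works with ubiquitin ligases, had at most 6 counts, and was present in 8 of 18 wild-type and in 4, 3 and 1 of 8 FGOs of the 3 mutants in the same order. Mkrn3, a RING finger protein that restrains the onset of puberty, was present in 2 of 18 wild-type FGOs and in 3 of 8 DNMT3A-ADD FGOs, with at most 4 counts, and was at 0 in all other FGO groups. Peg12, a FRAT family protein that binds the kinase GSK3, was present in 5 of 18 wild-type FGOs with at most 4 counts and was at 0 in all 24 mutant FGOs. Over the 8 double mutant FGOs together, a count of 0 allows up to 3 counts, or 0.027 CPM, and more where 2 counts come from 1 fragment. In MII oocytes Ndn and Magel2 were each present in 4 of 10, with at most 2 and 4 counts, and Mkrn3 and Peg12 were at 0. No fold change of these genes was resolved in the main fit at this depth. Without the filter on low counts, Peg12 passed in MII oocytes, as given below. Snurf was at 0 in all 52 oocytes, and its exons cannot be told apart from those of Snrpn.

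**Figure D3:**
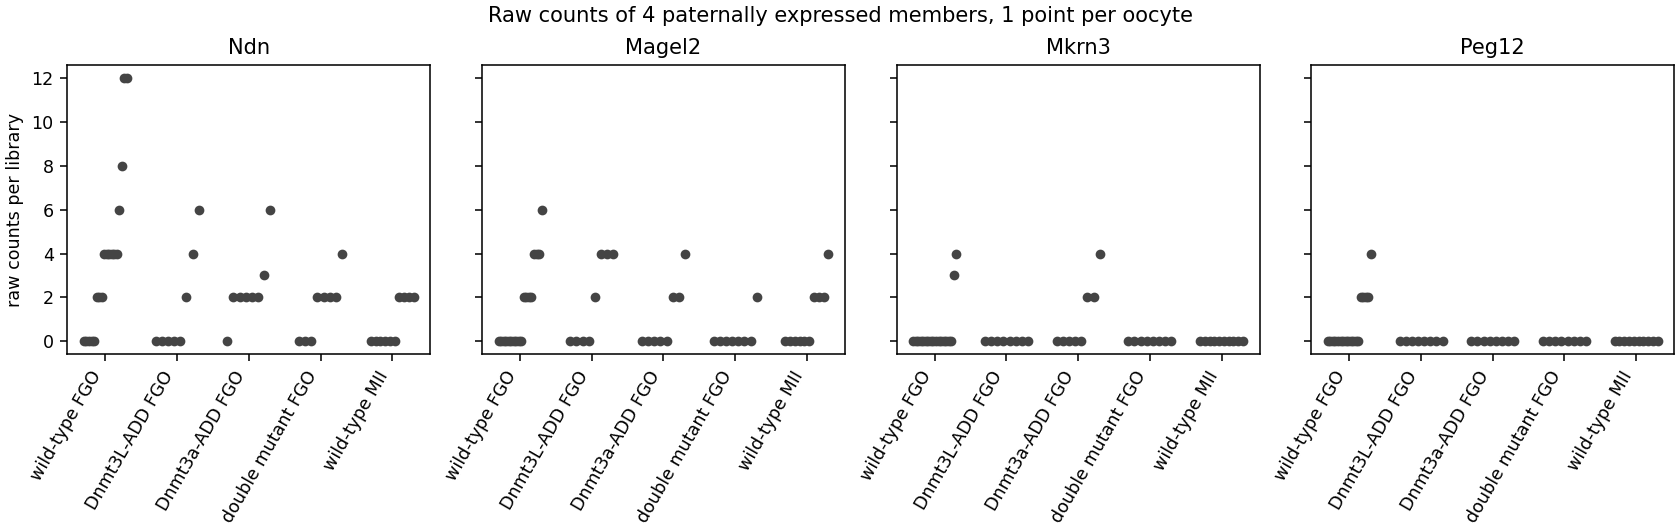
Raw counts per library of Ndn, Magel2, Mkrn3 and Peg12, with 1 point per oocyte and the points of a group drawn in order of value. The highest count is 12 (Ndn in wild-type FGOs), and Peg12 is above 0 in wild-type FGOs alone.

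Over the 52 oocyte libraries, the 5 genes whose CPM followed Ube3a most closely, among 8309 genes with a mean of at least 10 CPM, were Appl1 (Spearman's rho 0.794), Wee1 (0.793), E330017A01Rik (0.791), Cct4 (0.790) and 1810022K09Rik (0.788). Only Wee1 is on chromosome 7. The libraries share depth and class differences, so these values are a description.

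Of the non-coding transcripts of the cluster, 6 of 10 listed names were in the oocyte tables and 2 had enough reads, Snhg14 and A230057D06Rik. Snhg14 ranged from 0.355 to 6.31 CPM with a median of 2.01 in wild-type FGOs and from 0.20 to 1.30 CPM with a median of 0.603 in MII oocytes. Of its exonic bases 6.91% overlap Ube3a on the opposite strand, and the part of Ube3a reads in the Snhg14 values was not tested. Snhg14 was tested in the same comparisons as the members. It fell by 2.01 (SE 0.42) on the log2 scale in MII oocytes (adjusted p = 0.000157, edgeR), a call lost within the higher class of mapped reads (-1.19, adjusted p = 0.0678). In FGOs its log2 difference was -0.64 (SE 0.42, adjusted p = 0.375) with DNMT3L-ADD, -1.11 (SE 0.43, adjusted p = 0.0716) with DNMT3A-ADD and 0.33 (SE 0.39, adjusted p = 0.605) with both. Without DNMT3A-ADD replicate 4, which held 3.39 CPM, the DNMT3A-ADD difference was -1.56 (adjusted p = 0.0155). It also passed with all oocytes in DESeq2 (-1.12, adjusted p = 0.0388) and with the replicate number as a block (-1.66, adjusted p = 0.0126). The block in effect sets the mutant against wild-type FGOs of the lower class alone. The difference did not pass with the class as a covariate (-0.93, adjusted p = 0.133) or within the lower (-2.01, adjusted p = 0.058) or higher class (-0.36, adjusted p = 0.732).

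Of 21 listed genes that flank the cluster, 20 were in the tables and 19 had enough reads. Over all genes 6.13%, 15.7%, 12.2% and 39.1% passed with DNMT3L-ADD, with DNMT3A-ADD, with both and in MII oocytes, and the counts of flanking genes are to be read against these. In DNMT3L-ADD FGOs 1 of 19 passed the test, Tjp1, a tight junction scaffold, which rose by 0.19 (SE 0.06, adjusted p = 0.0487). In DNMT3A-ADD FGOs 5 of 19 passed, led by Tjp1 (0.23, SE 0.06, adjusted p = 0.00867), the DNA repair nuclease Fan1 (-0.80, SE 0.23, adjusted p = 0.0171) and the zinc finger transcription factor Klf13 (-0.31, SE 0.10, adjusted p = 0.0214). In double mutant FGOs 2 of 19 passed, Gabrg3 (-1.23, SE 0.33, adjusted p = 0.0130) and Herc2 (-0.13, SE 0.04, adjusted p = 0.0485), and neither passed within the lower class, where Gabrg3 differed by -0.93 (adjusted p = 0.218) and Herc2 by -0.02 (adjusted p = 0.924). In MII oocytes 8 of 19 passed, and Fan1, from 14.8 ± 6.79 CPM in wild-type FGOs to 1.72 ± 0.55 CPM (n = 10), fell by 3.12 (SE 0.25, adjusted p = 1.88e-15). The calls of Tjp1 with DNMT3L-ADD, and of Tjp1 and Fan1 with DNMT3A-ADD, were lost within the higher class (adjusted p = 0.173, 0.13 and 0.14). Within the lower class, Fan1 (-1.07, adjusted p = 0.115) and Klf13 (-0.16, adjusted p = 0.595) did not pass with DNMT3A-ADD, whereas Tjp1 did (0.36, adjusted p = 0.04). Fan1 in MII oocytes passed within both classes. Over the 19 genes the median log2 difference was -0.00086 with DNMT3L-ADD, 0.02 with DNMT3A-ADD, -0.10 with both mutations and 0.05 in MII oocytes, beside -0.03, -0.03, -0.0088 and -0.05 over all genes tested.

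In embryos the counts that could be assigned to a parent were used, and the maternal share is the maternal count in percent of both. The 3 embryos were not alike. The embryo markers Hbb-y, an embryonic globin, and Actc1, a heart actin, had 12181 and 7278 allelic counts in embryo 1, against 24 and 140 in embryo 2 and 12 and 286 in embryo 3. Over all 8 embryo markers the sum was 5117 per 1000000 allelic counts in embryo 1, 77.7 in embryo 2 and 182 in embryo 3, with only Pou5f1 at 0. Hba-x, Hbb-bh1, Tnnt2 and Pax6 were, like Hbb-y and Actc1, far lower in embryos 2 and 3. Sox2 differed less, with 906, 289 and 672 counts. Markers of decidua and uterine natural killer cells, which are maternal tissue, summed to 3.85, 43.6 and 13.1 per 1000000, with 3, 10 and 7 of 10 detected. These sums held 29, 373 and 92 counts, of which 65.5%, 84.7% and 45.7% were maternal in embryos 1, 2 and 3. Of 6 trophoblast markers 1, 3 and 2 were detected, at 0.929, 5.97 and 3.43 per 1000000. Dnmt3l had 0, 842 and 756 counts. The median maternal share of autosomal genes with at least 100 allelic counts was 51.2% in embryo 1, 57.9% in embryo 2 and 51.3% in embryo 3. The 95th percentile of these shares was 63.8%, 83.1% and 64.5%. Values are therefore given embryo by embryo.

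The 4 paternally expressed genes with enough allelic counts, Ndn, Magel2, Mkrn3 and Peg12, were almost wholly paternal in embryo 1 and had larger maternal shares in embryos 2 and 3. Tissue of the carrying female, whose markers were highest in embryo 2, may add to the maternal counts. Its part was not tested. Ndn had 6 maternal and 144 paternal counts in embryo 1, a maternal share of 4.00% (95% Wilson interval 1.85 to 8.45). In embryo 2 it had 17 and 47 counts (26.6%, interval 17.3 to 38.5) and in embryo 3 it had 34 and 59 (36.6%, interval 27.5 to 46.7). Ndn thus stayed mainly paternal in all 3 embryos, with every upper bound below 50%.
Magel2 had 0 maternal and 43 paternal counts in embryo 1 (0%, interval 0 to 8.20). In embryo 2 it had 35 and 53 (39.8%, interval 30.2 to 50.2) and in embryo 3 it had 48 and 22 (68.6%, interval 57.0 to 78.2). Maternal counts of Magel2 thus exceeded its paternal counts in embryo 3 alone.
Mkrn3 had 4 maternal and 39 paternal counts in embryo 1 (9.30%, interval 3.68 to 21.6). In embryo 2 it had 45 and 12 (78.9%, interval 66.7 to 87.5) and in embryo 3 it had 14 and 14 (50%, interval 32.6 to 67.4). It was the most maternal of the 4 genes in embryo 2.
Peg12 had 25 maternal and 227 paternal counts in embryo 1 (9.92%, interval 6.81 to 14.2). In embryo 2 it had 33 and 39 (45.8%, interval 34.8 to 57.3) and in embryo 3 it had 44 and 55 (44.4%, interval 35.0 to 54.3). For each of the 4 genes the interval of embryo 1 lay wholly below those of embryos 2 and 3.

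Summed over these 4 genes, the maternal share was 7.17% in embryo 1 (35 of 488 counts, interval 5.20 to 9.81), 46.3% in embryo 2 (130 of 281, interval 40.5 to 52.1) and 48.3% in embryo 3 (140 of 290, interval 42.6 to 54.0). Snhg14, the non-coding RNA of the cluster, followed the same order, with 35 of 255 counts maternal in embryo 1 (13.7%, interval 10.0 to 18.5), 263 of 602 in embryo 2 (43.7%, interval 39.8 to 47.7) and 263 of 522 in embryo 3 (50.4%, interval 46.1 to 54.7). With both alleles of each embryo scaled to equal autosomal medians, the summed share was 6.85%, 38.5% and 47.0% in embryos 1, 2 and 3. That of Snhg14 was then 13.1%, 36.1% and 49.1%. In embryo 2 the scaled shares were 20.8% for Ndn, 32.4% for Magel2, 73.2% for Mkrn3 and 38.1% for Peg12. Both alleles together, Snhg14 took 33.8, 70.4 and 74.6 per 1000000 allelic counts in the 3 embryos, whereas Ndn took 19.9, 7.49 and 13.3 and Peg12 33.4, 8.42 and 14.1. In samples of whole embryos, fewer cells of a type and less RNA per cell cannot be told apart. In embryo 1, 1.01% of 11038 autosomal genes with at least 10 allelic counts had a maternal share under 15%, and Ndn, Magel2, Mkrn3, Peg12 and Snhg14 were all among them. In embryos 2 and 3, where 0.961% and 1.17% of genes were under 15%, none of these 5 was.

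**Figure D4:**
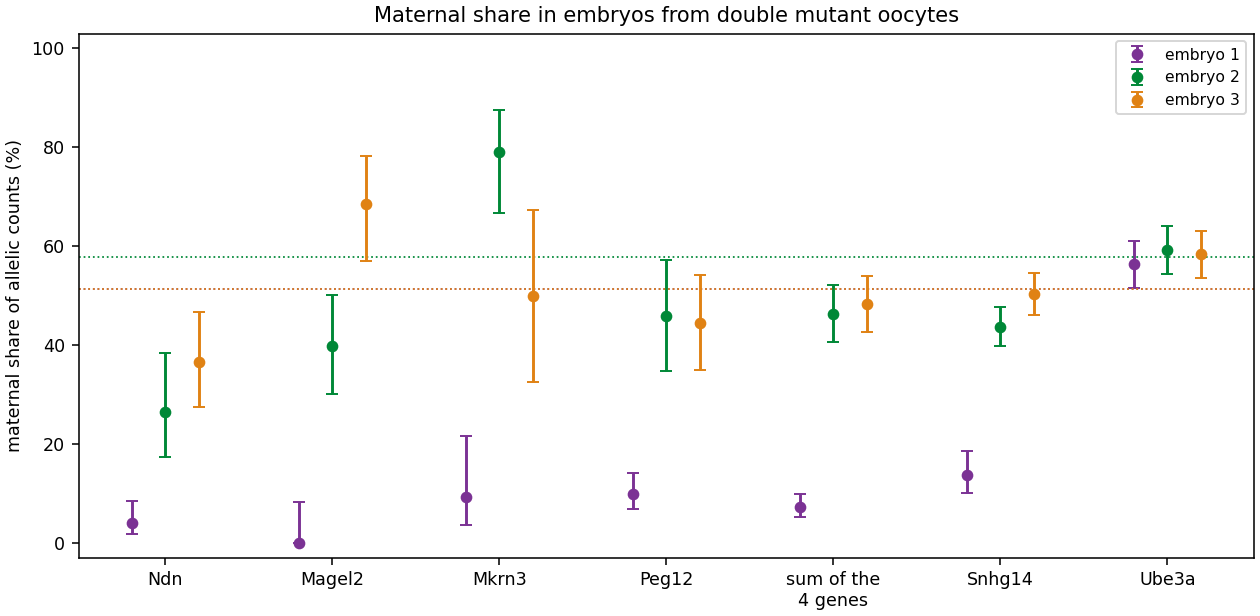
Maternal share of allelic counts in percent (linear axis from 0 to 100) with its 95% Wilson interval in each of 3 embryos, for the 4 paternally expressed genes, their sum, Snhg14 and Ube3a. Dotted lines give the median over autosomal genes of each embryo (51.2%, 57.9% and 51.3%), and embryo 1 lies below 15% for every gene but Ube3a.

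Ube3a had counts of both parents, at nearly the same maternal share in all 3 embryos. It had 227 maternal and 176 paternal counts in embryo 1 (56.3%, interval 51.4 to 61.1), 236 and 162 in embryo 2 (59.3%, interval 54.4 to 64.0) and 236 and 168 in embryo 3 (58.4%, interval 53.6 to 63.1). The mean was 58.0% ± 1.52 (SD, n = 3), against 22.4% ± 16.7 for Ndn, 33.4% ± 20.3 for Peg12, 36.1% ± 34.4 for Magel2 and 46.1% ± 35.0 for Mkrn3. After scaling both alleles of each embryo to equal autosomal medians, the Ube3a mean was 54.6% ± 2.91. Its summed level was 53.5, 46.6 and 57.7 per 1000000 allelic counts. Neuron markers (Tubb3, Elavl3, Elavl4, Stmn2, Dcx and Rbfox3) summed to 57.3, 19.8 and 51.3 per 1000000 in the same embryos, and their part in the Ube3a share was not tested. Snrpn was listed at 0 and 0 counts in embryos 1 and 2 and at 1, maternal, in embryo 3, and Snurf at 0 in all 3. Of the embryo tables' gene symbols 95.02% are RefSeq symbols, and in RefSeq Snhg14 (59272737 to 60450177) spans all of Snrpn (59982495 to 60450177) and Snurf (59982495 to 60005199) on the same chromosome. Whether reads on overlapping genes were left out of the count is not given in the sources used here, so no allelic value of Snrpn or Snurf can be read from these tables.

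The genes beside the cluster did not share the pattern of embryo 1. Of the 21 listed flanking genes 15 had at least 10 allelic counts in every embryo, and their maternal shares ran from 40.6% to 72.7% in embryo 1 with a median of 53.7%, from 27.3% to 62.0% in embryo 2 with a median of 52.3%, and from 42.5% to 54.6% in embryo 3 with a median of 49.9%. Herc2, a ubiquitin ligase gene on one side, had shares of 46.4%, 58.2% and 49.9% from over 1000 counts in each embryo, and Tjp1 on the other side had 49.5%, 53.0% and 48.1%. Other genes whose paternal expression rests on methylation set in the oocyte lay at other values than the cluster in embryo 1, a difference that was not tested. With at least 10 counts in every embryo, 12 of the 15 listed could be read, at 37.4% to 72.1% in embryo 1 (median 51.1%), 9.97% to 73.4% in embryo 2 (median 48.1%) and 41.5% to 73.0% in embryo 3 (median 49.4%). The lowest of embryo 2 were Peg10 at 9.97% and Sgce at 20.9%, both near 50% in embryos 1 and 3. Genes under methylation set in sperm kept a parental bias in all 3 embryos, with H19 at 98.8%, 96.1% and 75.4% and Igf2 at 0.488%, 2.31% and 11.8% maternal.

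**Figure D5:**
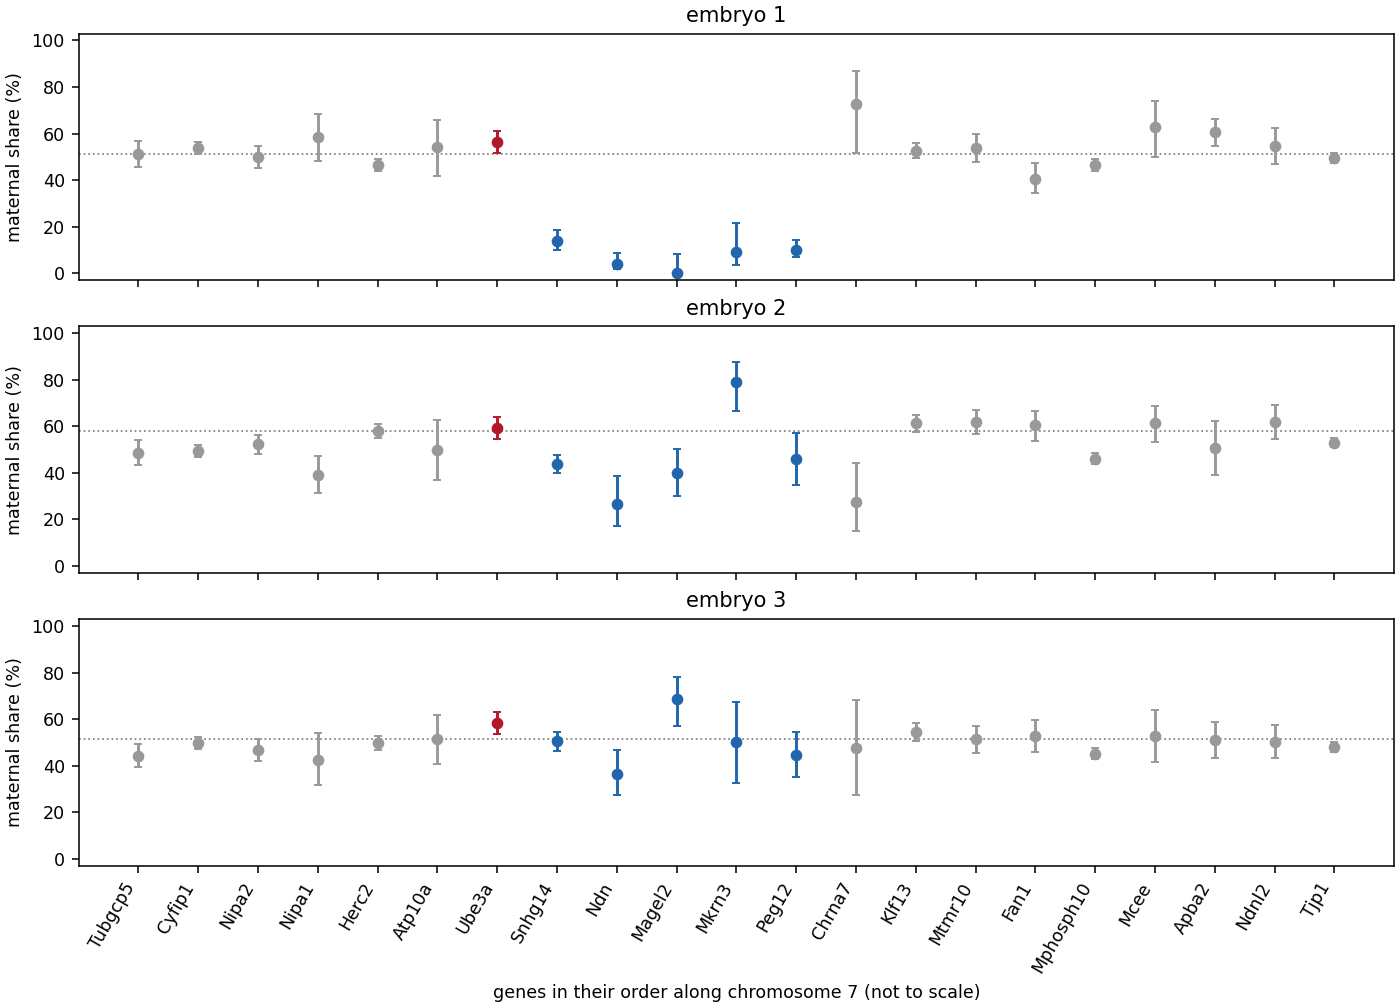
Maternal share in percent with its 95% Wilson interval for flanking genes (grey), Ube3a (red) and the paternally expressed genes of the cluster (blue, Snhg14 to Peg12), in their order along chromosome 7, in each embryo, with the autosomal median as a dotted line. In embryo 1 the 5 blue genes lie between 0% and 13.7%, and the flanking genes lie at 40.6% or more.

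Across the 3 embryos, maternal against paternal counts were compared with edgeR, the embryo as a block. Of the 7 members 5 had enough counts, and 0 of 5 passed an adjusted p of 0.05, beside 0.572% of the 10844 genes tested. At an unadjusted p under 0.05 there was 1 (Ube3a), and DESeq2, which called 726 genes against 62 in edgeR, called 0 of 5. The log2 ratio of maternal to paternal counts was -2.09 (SE 0.82, adjusted p = 0.296) for Ndn, -1.21 (SE 0.71, adjusted p = 0.418) for Peg12, -0.98 (SE 1.33, adjusted p = 0.711) for Magel2, -0.26 (SE 1.11, adjusted p = 0.912) for Mkrn3 and 0.47 (SE 0.16, adjusted p = 0.263) for Ube3a, beside a median of 0.23 over all genes. Without embryo 1, the ratio of Magel2 was 0.24 and that of Mkrn3 0.98, and the Ndn and Peg12 ratios were -1.11 and -0.28. The part of the embryos' cell makeup in these differences was not tested.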

How the data were processed

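RNA-seq libraries of 52 single oocytes and 3 embryos were used. Per the labels and the study's methods, the authors aligned reads to mm10 with STAR and counted reads per gene with featureCounts or HTSeq. The deposited values are raw counts, without normalization. The annotation release, the strand setting and the treatment of overlapping genes are not given in the sources used here. The authors also split the embryo counts by parental allele through base differences between strains. The allelic tables hold 8 further columns, all named as wild type, which match no sample here and were not used. The split of libraries at 80% mapped reads was made from the study's library summary.

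The tests used edgeR 4.0.16 (R 4.3.3) with its quasi-likelihood fit after TMM scaling, on genes kept by filterByExpr (min.count 10). A gene was called at an adjusted p (Benjamini-Hochberg) under 0.05. The 42 FGOs made 1 fit with a coefficient per genotype, and MII oocytes were tested in a fit of all 52 libraries. CPM values carry TMM factors over the 52 libraries. Fitted SEs were derived from the quasi-likelihood F. The biological coefficient of variation was 25.2% over FGOs. Alleles were compared with a common library size for both alleles of an embryo and the embryo as a block. Shares need at least 10 allelic counts. No 2 libraries of a group agreed within counting noise (lowest chi-square per degree of freedom 5.39). DESeq2 1.42.0 was an alternative, and the others were RLE size factors, no filter, the class as a covariate, 1 class only, the replicate number as a block, left-out libraries or embryos and other allelic scaling. Equal replicate numbers pair no animals per the labels. Same-numbered libraries of a mutant and wild-type FGOs correlated in their deviations at a median of 0.069 (DNMT3L-ADD), 0.176 (DNMT3A-ADD) and -0.198 (double mutant), so the number was not taken as a pairing. Simulated data were used to test the double mutant and non-additive contrasts, in edgeR and DESeq2, and the edgeR comparison of alleles. The other contrasts and fits were not tested in that way. The simulated oocytes held no difference between the classes of mapped reads, and the simulated embryos all held the same expected share of a gene. These simulations thus do not bear on the library class or on embryos as unlike as these. Named were the 7 members, up to 3 other genes of the region with the lowest adjusted p per comparison, and listed comparison genes. A further flanking gene is not reported here. The members and lists were chosen with earlier results of these data known.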

Additional observations from a re-analysis of the deposited data

Results flagged for a closer look

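For Ube3a, Snrpn and Snhg14, the highest and lowest oocyte of each group of 8 or 10 was set against the rest of its group. Of 12 such groups, 2 held an oocyte that stood apart by Dixon's criterion at 95%, which chance alone passes in about 1 group in 20. DNMT3L-ADD replicate 1 had 176 CPM of Ube3a, above the 144 CPM of the next oocyte. DNMT3A-ADD replicate 4 had 3.39 CPM of Snhg14, above the 1.28 CPM of the next oocyte, and the Snhg14 difference of that mutant passed the test without it (-1.56, adjusted p = 0.0155, edgeR).

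The non-additive contrast of both mutations passed the test in edgeR for 3 transcripts. Double mutant FGOs are all of the lower class and DNMT3L-ADD FGOs all of the higher. The contrast thus cannot be fitted within a class, and class and genotype cannot be fully told apart in it. The log2 departure was 0.76 for Ube3a, -0.69 for Snrpn and 2.07 for Snhg14 (adjusted p = 2.02e-06, 0.00911 and 0.011). With the class of mapped reads as a covariate, the adjusted p was 0.00146, 0.0518 and 0.282.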

How the results depend on the processing

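Over 10 oocyte results (Ube3a and Snrpn in 5 comparisons) and 64 alternatives, 56 kept the direction and the side of the threshold. The Ube3a difference no longer passed in DNMT3L-ADD FGOs with the class as a covariate (-0.19) or within the higher class (-0.14), and in DNMT3A-ADD FGOs within the higher class (-0.22). Snrpn no longer passed in DNMT3A-ADD FGOs within the lower class (0.31) and in the non-additive contrast with the class as a covariate (-0.72). Class-limited fits hold fewer oocytes, and the cause was not tested otherwise. The double mutant difference of Ube3a, not called in any of these fits, turned to -0.0056 with the class as a covariate, -0.0838 within the lower class and -0.0706 with the replicate block. The replicate block changed no call of a member, but it sets mutant FGOs against wild-type FGOs 1 to 8 alone. Wild-type FGOs 9 to 18 share their number with no mutant FGO, and numbers 1 to 8 are all of the lower class. With the block the Ube3a difference was -0.43 in DNMT3L-ADD FGOs, all of the higher class, and -0.56 in DNMT3A-ADD FGOs. The block thus cannot separate class from genotype in these mutants. Snhg14 in the double mutant turned to -0.0892 with the replicate block and to -0.16 within the lower class. Over all genes, the double mutant comparison had 1926 calls, against 410 with the class as a covariate, 169 within the lower class, 227 with the replicate block and 1184 without the filter. DNMT3L-ADD had 964 calls, 467 without the filter and 2830 with the block. DNMT3A-ADD had 2465, against 4109 with the block and 1043 and 1334 within the lower and higher class. MII oocytes had 6170, against 3098 and 3546 within the classes, and the non-additive contrast 5601, against 2226 with the covariate. Without a filter on low counts, Peg12 passed the test in MII oocytes (adjusted p = 0.0314, edgeR), from 12 counts over 18 wild-type FGOs and 0 over 10 MII oocytes.

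In embryos no alternative brought a member past the threshold, while the 62 calls over all genes became 726 in DESeq2, 105 with allele-wise TMM, 97 without the filter and 0 to 363 with 1 embryo left out. Leaving out 1 embryo gave log2 ratios from -2.91 to -1.11 for Ndn, from -2.43 to 0.24 for Magel2, from -1.50 to 0.98 for Mkrn3, from -1.75 to -0.28 for Peg12 and from 0.43 to 0.52 for Ube3a. With at least 100 allelic counts, Ndn (4.00%) and Peg12 (9.92%) could be read in embryo 1 only, Magel2 and Mkrn3 in none, and the Ube3a share moved to 54.6% with scaled alleles.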
